A study of Canis lupus familiaris with 29 samples.

Results

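The genes described here are 50 genes of mitosis, given as a list of names that covers the kinases and cyclins of mitotic entry, the kinetochore, the spindle, the spindle checkpoint, cytokinesis and chromosome condensation. The members were taken as the rows of the deposited expression files that carry these names. Of the 50 names, 47 had a row among the 24223 dog genes of the files, and all 47 were among the 11774 genes tested. PTTG1, CENPF and KIF4A were not analysed here. The names were chosen by function, with earlier results on these data known.

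In mitosis a cell condenses its copied chromosomes, attaches them to a bipolar spindle through the kinetochores, and separates them once the spindle checkpoint is satisfied. For this separation the anaphase-promoting complex marks cyclins and other inhibitors of separation for destruction. The central spindle and contractile ring then divide the cell. Most of the genes are transcribed in G2 and mitosis under the control of B-MYB and FOXM1 and are repressed by the DREAM complex in resting cells, so their transcripts are widely used as a readout of dividing cells. Kidney epithelial cells such as MDCK divide while sparse and largely stop as they form a dense polarized layer or a cyst.

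The cells were MDCKII, an established line of dog kidney epithelium, and 29 RNA sequencing libraries in 13 groups were compared. Wild-type cells were collected when they were to be seeded (day 0, 4 libraries), on matrigel, where they form 3D cysts, after 24 h and after 3, 5 and 8 days (2 libraries each) and 14 days (1 library), and as over-confluent 2D layers on transwell inserts at day 4 and day 11 (3 libraries each). Cells in which DENND5A or AVL9 had been knocked down (KD), both DENN domain proteins that regulate Rab GTPases, were collected at day 0 and at 2D day 4 (2 libraries each), and DENND5A-KD cells also at 2D day 7 (2 libraries). All groups shared the same line and medium. DENND5A-KD libraries were numbered 1 or 2 and AVL9-KD libraries 1 or 4, and these are called lines here. What the numbers mark and how the knockdown was made were not given in the sources used here, and no control line of the same treatment was among the samples. The labels did not say if each replicate was its own culture, and a p-value therefore covers only the spread among these libraries, which may be technical.

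Levels are FPKM, that is read fragments scaled to transcript length and library size, so they can be compared between genes. Changes are differences of group means of log2(FPKM + 1) with their standard error (SE), a scale on which changes of weakly expressed genes come out too small. A gene passed when its limma p, adjusted over all tested genes, was under 0.05. Counts at an unadjusted limma p under 0.05 are of mitosis genes only, and the share of all genes at that cutoff was not examined. These were bulk samples, so fewer dividing cells and less of each transcript per cell cannot be told apart.

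Total FPKM ran from 276017 to 441332 per library, 10163 to 10903 genes reached 1 FPKM, and read depth was known only roughly, as 0.444 to 1.68 times that of day 0 replicate 2. TIMM13 was listed at 0 in 5 wild-type libraries, which stood apart: the day 14 library and replicate 1 of 4 groups (2D day 4, day 0, and 3D at days 3 and 8). TMSB10 was at 0 to 223 FPKM in these 5 and at 1030 to 3541 in the others, and RPS27L at 11.6 to 22.3 against 0 to 1.37. Their relative depth was 0.444 to 0.707, against 0.543 to 1.68 in the others. What set these libraries apart was not tested. Median changes from day 0 are also given within and outside these 5 for 3D at days 3 and 8 and for 2D day 4. DENND5A was at 4.98 to 6.89 FPKM in wild-type day 0 cells and at 2.02 and 1.88 in DENND5A-KD, and AVL9 at 22.2 to 23.7 against 7.21 and 5.70 in AVL9-KD. At 2D day 4 DENND5A was at 10.2 to 10.9 FPKM in wild type and at 3.36 and 4.29 in DENND5A-KD. AVL9 was then at 17.9 to 25.1 against 6.35 and 3.89 in AVL9-KD. The epithelial marker EPCAM was at 225 to 378 FPKM in all libraries, whereas none of the 14 leukocyte, endothelial and fibroblast markers reached the expression filter.

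Dividing day 0 cells expressed all 47 mitosis genes, and the whole group was lower in every mature culture. The FPKM of the 47 genes summed to 1535 ± 173 (SD, n = 4) at day 0. In 3D the sums were 1369 and 1590 at 24 h, 952 and 904 at day 3, 758 and 495 at day 5, 464 and 440 at day 8, and 360 at day 14. In 2D they were 274 ± 57.5 (SD, n = 3) at day 4 and 560 ± 96.1 (SD, n = 3) at day 11, so the layer on inserts was lowest at its earlier time point. At 2D day 4 the sums were 825 and 551 in DENND5A-KD and 280 and 175 in AVL9-KD, and DENND5A-KD had 293 and 367 at day 7. In the plot of sums, seeding cultures and 24 h cultures lay highest, and both DENND5A-KD libraries at 2D day 4 lay above all 3 wild-type libraries of that time.

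**Figure D1:**
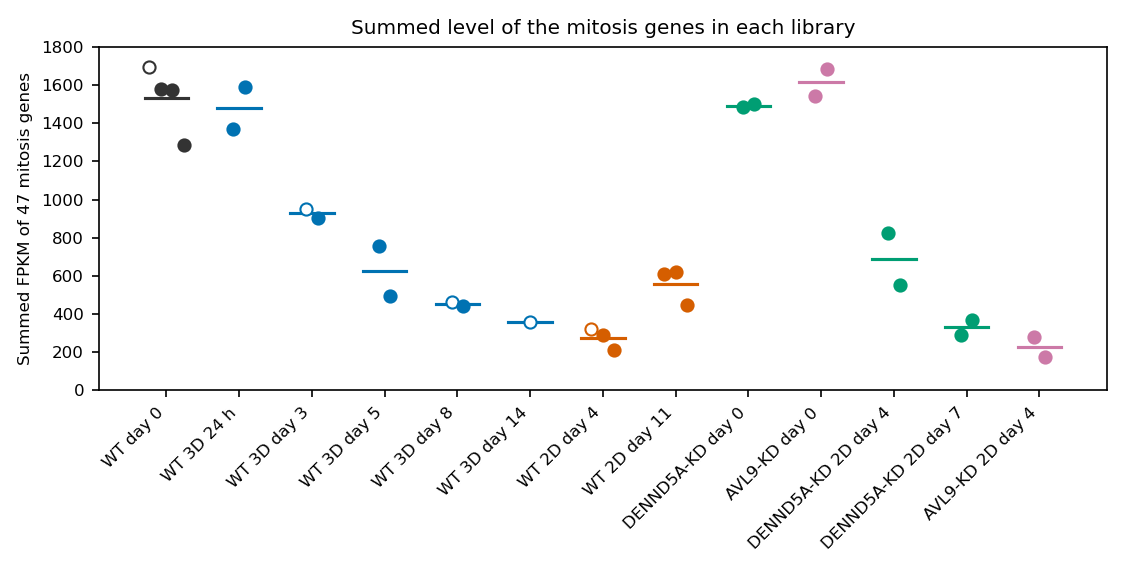
Summed FPKM of the 47 measured mitosis genes (vertical axis) in each library, by group. Points are libraries, bars are group means, and open points are the 5 wild-type libraries that stood apart; the sums were 1289 to 1694 at wild-type day 0 and 210 to 322 at wild-type 2D day 4.

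The level of single genes at day 0 spanned from 114 ± 20.4 FPKM (SD, n = 4) for ANLN, an actin-binding scaffold of the contractile ring, to 2.84 ± 0.651 for KIF18A, a motor that limits chromosome oscillation. CDK1 (112 ± 17.1), the kinase that drives entry, was next to ANLN and did not differ from it beyond the spread. BIRC5 (70.6 ± 9.22), the survivin subunit of the chromosomal passenger complex, followed. No mitosis gene was listed at 0 in any library.

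At 24 h on matrigel no mitosis gene passed against day 0. Of the 47, 0 were lower and 0 higher after adjustment (0.561% and 0.629% of all genes were), and 1, ANLN, had an unadjusted limma p under 0.05. ANLN was at 140, 111, 115 and 90.3 FPKM at day 0 and at 77.2 and 89.0 at 24 h, with both 24 h libraries below all day 0 libraries (log2 change -0.44, SE 0.20, adjusted p = 0.341). The median over the 47 genes was 98.6% of the day 0 mean.

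In 3D cysts the genes then fell, in 29 of 47 by day 3, 43 by day 5 and 46 by day 8, with none higher at any of the 3 times. Of all tested genes 23.1%, 31.2% and 38.0% were lower at these times. The median log2 change over the mitosis genes was -0.72, -1.25 and -1.70, against 0.05, -0.04 and -0.13 over all tested genes. Every day 8 library was below every day 0 library for 47 of 47 genes, compared with 40.4% of all genes. The 3 comparisons share the day 0 libraries. Within the libraries that stood apart the median change was -0.79 at day 3 and -1.73 at day 8, and within the others -0.74 and -1.63.

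Among the 6 genes of mitotic entry, 2 had fallen by 3D day 3 and all 6 by day 5 (23.1% and 31.2% of all genes). PLK1, the kinase of centrosome maturation and of several later steps, was at 45.7, 41.8, 42.3 and 31.0 FPKM at day 0, at 19.2 and 19.8 at 3D day 3, at 12.8 and 10.7 at day 5 and at 9.07 and 6.72 at day 8. Its groups did not overlap from day 3 on, and the log2 change at day 8 was -2.21 (SE 0.21). CDK1 was at 131, 103, 120 and 93.0 FPKM at day 0, at 75.2 and 73.9 at day 3, at 75.5 and 34.1 at day 5 and at 48.4 and 46.6 at day 8. The log2 change of CDK1 was smaller, -0.56 (SE 0.26, adjusted p = 0.0764) at day 3 and -1.20 at day 8. CCNB2, a B-type cyclin that activates CDK1, changed least of the 6 by day 8 (log2 change -1.16, SE 0.28), from 30.6, 32.9, 29.7 and 25.1 FPKM at day 0 to 26.5 and 24.3 at day 3 and 13.4 and 11.9 at day 8. CCNA2, the A-type cyclin of S phase and early mitosis, was the other gene with PLK1 to have fallen by day 3, to 45.6% of its day 0 mean.

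The 4 passenger complex genes split at 3D day 3, although the encoded proteins act as 1 complex at the inner centromere. CDCA8 and INCENP had fallen, to 38.1% and 42.1% of day 0, while AURKB, the kinase, was at 71.9% (adjusted p = 0.0529) and BIRC5 at 96.9%. BIRC5 was at 78.9, 77.7, 65.8 and 59.97 FPKM at day 0, at 67.9 and 68.9 at day 3, at 50.1 and 26.2 at day 5 and at 24.7 and 25.2 at day 8, so its day 3 values lay inside the day 0 range and its later values below it. By day 8 all 4 had fallen (38.0% of all genes were lower). The log2 changes ran from -2.25 (SE 0.25) for CDCA8 to -1.07 (SE 0.19) for AURKB.

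Checkpoint genes were also uneven. BUB1B, which holds back the anaphase-promoting complex, fell most by day 8 (log2 change -1.74), and MAD2L1, its partner in that inhibitor, fell least (-0.65, SE 0.25). MAD2L1 (ENSCAFG00000016467) was at 51.2, 58.8, 52.2 and 45.9 FPKM at day 0 and at 56 and 59.7 at 3D day 3, within or just above the day 0 range. The 2 day 5 libraries then diverged, at 68.8 in replicate 2 and 27.3 in replicate 3, and day 8 gave 30.7 and 34.6. The 4 measured genes of anaphase and protein destruction had all fallen by day 3 (23.1% of all genes were lower). ESPL1, the separase protease, was at 33.8% and UBE2C, the ubiquitin-conjugating enzyme of the anaphase-promoting complex, at 43.5% of day 0. CDC20, the activator of that complex, was at 20.2, 19.9, 18.1 and 14.1 FPKM at day 0 and at 9.83 and 9.12 at day 3, with no overlap.

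Centromere and kinetochore genes were higher at 3D day 3 than most other roles. Of the 9, 2 had fallen (CENPE and SPC25), a share near the 23.1% of all genes that were lower. The other 7 stood above 75% of their day 0 mean: CENPA, CENPH, CENPN, NDC80, NUF2, SPC24 and KNSTRN. Over the 38 other mitosis genes, 5 did so (CCNB2, BIRC5, MAD2L1, KIF18A and CKAP2). The share of all genes above 75% was not examined. SPC24, a subunit of the NDC80 complex that grips microtubules, was at 12.3, 16.4, 15.2 and 14.6 FPKM at day 0 and at 18.5 and 21.7 at day 3. Both day 3 values were above all day 0 values, but the difference did not pass (log2 change 0.43, SE 0.21, adjusted p = 0.0949). KNSTRN, which helps to align chromosomes at the kinetochore, was at 12.1, 11.6, 12.1 and 10.4 FPKM at day 0, at 10.5 and 13.1 at day 3, at 13.9 and 7.68 at day 5 and at 5.51 and 8.88 at day 8. SPC25, a direct partner of SPC24, was at 13.2, 10.8, 11.2 and 8.76 FPKM at day 0 and at 5.84 and 7.04 at day 3, so genes of 1 complex did not keep 1 ratio. Total FPKM was 441332 and 393871 in the day 3 libraries against 308001 to 368572 at day 0. Transcript lengths were not used here, and the part of total FPKM in the order of genes at day 3 was not tested.

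Genes of cytokinesis and of chromosome structure had among the lowest medians at 3D day 3. Of 6 cytokinesis genes 5 had fallen by day 3 and 6 by day 5, and all 6 chromosome structure genes had fallen by day 3. Of all genes 23.1% were lower at day 3 and 31.2% at day 5. ANLN dropped to 37.7 and 33.0 FPKM at day 3, to 24.5 and 20.3 at day 5 and to 15.9 and 14.4 at day 8, which gave the largest change of the 47 at day 3 (log2 change -1.65, SE 0.20, adjusted p = 2.38e-06) and at day 8 (-2.82, SE 0.20, adjusted p = 1.13e-09). KIF23, a motor of the central spindle, was at 37.7% and NCAPG, a condensin subunit, at 36.0% of day 0 at day 3. RACGAP1, the partner of KIF23 in the central spindle, did not pass at day 3 (70.1% of day 0, adjusted p = 0.0512). MKI67 (ENSCAFG00000013255), the proliferation antigen that coats mitotic chromosomes, was at 35.6, 37.0, 33.6 and 29.6 FPKM at day 0, at 13.9 and 12.3 at day 3 and at 5.76 and 3.16 at day 8. TOP2A, the topoisomerase that untangles sister chromatids, was at 55.9, 55.4, 60.5 and 47.7 FPKM at day 0, at 31.1 and 28 at day 3 and at 13.8 and 11.8 at day 8. All 3 genes with values by library had no overlap with day 0 from day 3 on.

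**Figure D2:**
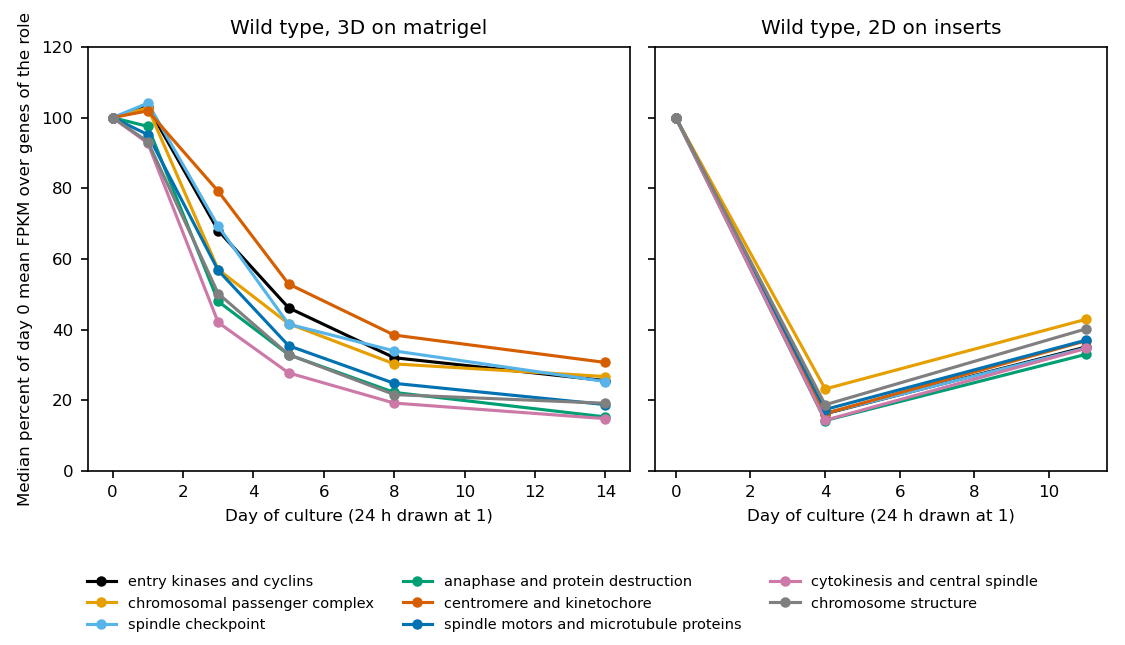
Median level of the genes of each role, in percent of the wild-type day 0 mean FPKM (vertical axis), against the day of culture in 3D (left) and 2D (right). Lines join group medians and show no error; at 3D day 3 the medians ran from 42.0% for cytokinesis to 79.2% for the kinetochore, and at 2D day 4 from 14.2% to 23.2%.

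Of the 8 spindle motor and microtubule genes, 7 had fallen at 3D day 8 (38.0% of all genes were lower). TPX2, an activator of AURKA on the spindle, fell most (log2 change -2.44, SE 0.23). CKAP2, a microtubule-stabilizing protein, was the only 1 of the 47 genes that did not pass at day 8. It was at 28, 29.4, 28.8 and 25.5 FPKM at day 0, at 31.0 and 26.7 at day 3, at 22.1 and 24.0 at day 5 and at 20.8 and 21.5 at day 8 (log2 change -0.38, SE 0.26, adjusted p = 0.205). Both day 8 values were below all day 0 values. KIF18A, the lowest in level, was at 3.23, 2.68, 3.46 and 2.00 FPKM at day 0 and at 1.17 and 1.19 at day 8.

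The steps between consecutive 3D times were less well resolved than the changes from day 0. From 24 h to day 3, 24 of 47 genes had fallen (17.8% of all genes), with a median of -0.68, and without 24 h replicate 3 the count was 15. Between day 3 and day 5 no gene passed (0.306% of all genes were lower and 0.0849% higher), 29 had an unadjusted limma p under 0.05, and the median was -0.55, while without day 5 replicate 2 the count was 2. Between day 5 and day 8 no gene passed (0.0255% were lower and 0.00849% higher), 13 had an unadjusted limma p under 0.05, and the median was -0.43. The day 5 libraries were far apart, with sums of 758 and 495. The single day 14 library was 1 of the 5 that stood apart, and of the day 0 libraries only replicate 1 did. The day 14 library had 45 of 47 genes more than 2-fold below the day 0 mean on the log2(FPKM + 1) scale. Of all genes 11.7% were so, and the median log2 difference of the 47 was -2.0. The 2 exceptions on that scale were CKAP2 (20.95 FPKM) and KIF18A (1.32 FPKM). In FPKM itself KIF18A was at 46.5% of its day 0 mean, and 46 of 47 genes were under 50%. Against day 8 replicate 1, which also stood apart, 44 genes were lower at day 14, by a median of -0.33. Against day 8 replicate 2, which did not, 38 were lower, by a median of -0.20, with no test of either. Over all genes these medians were 0.07 and 0.21, and the share of all genes that was lower was not examined.

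On inserts the mitosis genes were low at the first time sampled. At 2D day 4 all 47 genes were lower than at day 0 (29.6% of all genes were lower and 30.3% higher), with no overlap between the groups for any of them (27.4% of all genes), and the median log2 change was -2.35 against 0.00 over all genes. The median gene stood at 16.4% of its day 0 mean. The medians of the 8 roles lay between 14.2% and 23.2%, against 42.0% to 79.2% at 3D day 3. In percentage points this range was narrower, but it lay at a lower level. MAD2L1, SPC24 and KNSTRN, which had been at 111%, 137% and 102% at 3D day 3, were at 16.2%, 28.3% and 15.9% here.

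CCNA2 changed most at 2D day 4 (log2 change -3.0, SE 0.24), from 60.4, 54.9, 51.8 and 42.5 FPKM at day 0 to 8.59, 5.32 and 3.78. CDK1 was at 21.6, 19.6 and 15.2 FPKM, MKI67 at 7.28, 4.04 and 3.50, and PLK1 at 7.41, 5.92 and 4.17. PRC1, which bundles the microtubules of the central spindle, had the smallest adjusted p (2.44e-10, log2 change -2.56, SE 0.16). The smallest changes on the log2(FPKM + 1) scale were those of KIF18A (-0.82, SE 0.14), CKAP2 (-0.85, SE 0.23) and AURKB (-1.43, SE 0.17). In FPKM itself CKAP2 changed less than the weakly expressed KIF18A, at 54.1% against 41.4% of the day 0 mean. CKAP2 remained at 16.8, 15.5 and 13.1 FPKM and AURKB at 7.51, 7.20 and 6.07. Within the libraries that stood apart the median change of the 47 genes was -2.25, and within the others -2.39.

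**Figure D3:**
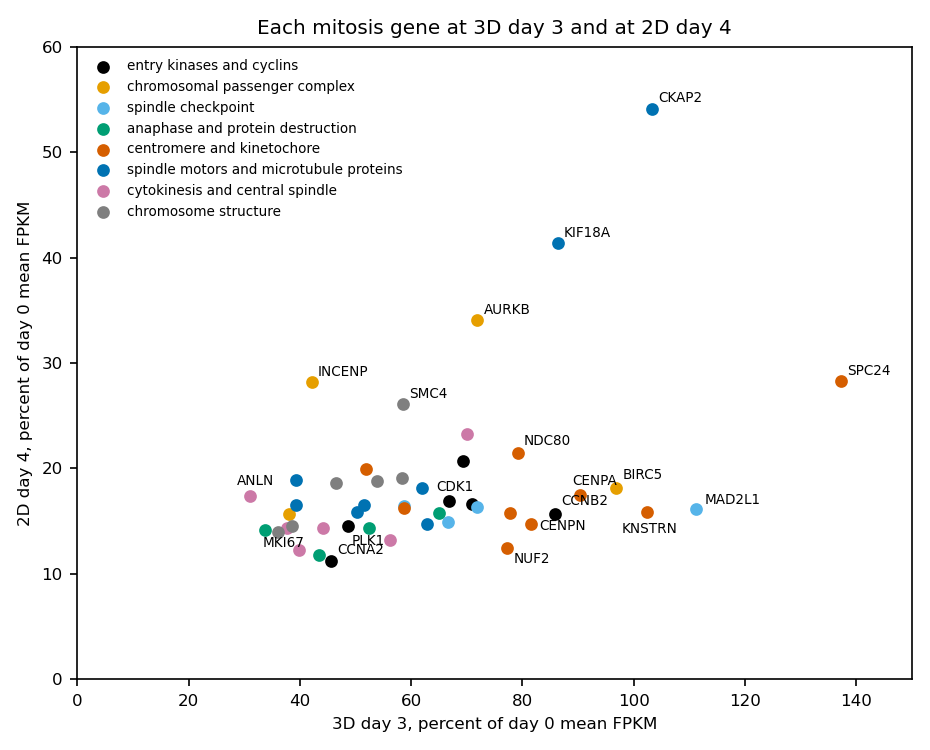
Each measured mitosis gene at 3D day 3 (horizontal axis) and at 2D day 4 (vertical axis), both in percent of its wild-type day 0 mean FPKM, coloured by role. Points are group means without error bars; the genes spread from 31.0% to 137% in 3D, and from 11.3% to 54.1% in 2D, with CKAP2, KIF18A and AURKB highest in 2D.

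By 2D day 11 the genes were still below day 0 in 47 of 47 cases (23.7% of all genes were lower and 32.2% higher), again with no overlap (25.7%), but at a median of 36.5% of day 0. From day 4 to day 11, 39 of 47 had risen and none had fallen, against 1.90% and 0.178% of all genes, by a median log2 change of 0.99. The libraries did not overlap for 44 genes (13.6% of all genes). TOP2A rose from 13.5, 9.97 and 7.51 to 28.7, 29 and 16.6 FPKM, and CDK1 from 21.6, 19.6 and 15.2 to 41.0, 41.5 and 31.9. The largest rise was that of KIF20A, a motor needed for cleavage (log2 change 1.35, SE 0.25), from 3.56, 1.78 and 1.68 to 8.52, 8.63 and 5.11. The smallest adjusted p was 0.0109, shared by NCAPH, PRC1, HMMR, ESPL1 and SMC2 among others.

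The 8 genes that did not pass between 2D day 4 and day 11 were AURKB, CENPE, CKAP2, INCENP, KIF15, KIF18A, NEK2 and SPC24. KIF15, a spindle motor that backs up KIF11, was at 1.72, 1.41 and 1.37 FPKM at day 4 and at 2.42, 2.62 and 2.59 at day 11 (log2 change 0.51, adjusted p = 0.0657). The number that rose, 39 with all libraries, rested on few of them. Without 2D day 4 replicate 3, day 11 replicate 1 or day 11 replicate 2 the number that rose was 0. Fitted on these 2 groups alone it was also 0. Each of these fits had 44 genes at an unadjusted limma p under 0.05, a cutoff at which the share of all genes was not examined. Day 11 replicate 3 (summed FPKM 449) lay nearest to the day 4 libraries (322, 290 and 210).

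Cysts and layers were set side by side at the nearest times. At 3D day 5, 36 of 47 genes were higher than at 2D day 4 and none lower (12.7% of all genes were higher), by a median of 0.94, and without 3D day 5 replicate 2 the count was 19. Fitted on these 2 groups alone it was 11, with 41 genes at an unadjusted limma p under 0.05. MAD2L1 differed most (log2 difference 2.26, SE 0.26, adjusted p = 1.18e-05), with 68.8 and 27.3 FPKM against 8.84, 10.1 and 6.32, followed by KNSTRN (2.02) and CENPA (1.81), the centromeric histone. ANLN (0.19, adjusted p = 0.523), INCENP and KIF18A were the closest. At 3D day 8 against 2D day 11, 15 genes were lower and 2 higher (35.2% and 10.9% of all genes), so the share lower was close to that of all genes. ANLN was the lowest in the cyst relative to the layer (-1.38, SE 0.21, adjusted p = 3.77e-05), and MAD2L1 (0.79) and NUF2 (0.64), a partner of NDC80, were the 2 higher genes. The median difference over all genes was -0.20, and the mitosis genes lay 0.16 below it at -0.36. The total of 17 was 7 without 3D day 8 replicate 2 and 11 without 2D day 11 replicate 1. Culture form and culture time differ together in these comparisons and cannot be told apart.

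In DENND5A-KD, 1 mitosis gene differed from wild type in seeding cultures, while the knockdown went with higher levels than wild type at 2D day 4. At day 0, 0 of 47 genes were lower and 1 was higher (2.25% and 3.27% of all genes). At 2D day 4, 44 of 47 were higher than in wild type and none lower, against 5.54% and 5.79% of all genes, with a median log2 difference of 1.27 (-0.03 over all genes). The 2 groups did not overlap for 45 of 47 genes (16.5% of all genes). The 3 genes that did not pass were KIF18A, AURKB and CKAP2.

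CDK1 was at 46.7 and 36.8 FPKM in DENND5A-KD at 2D day 4 and at 21.6, 19.6 and 15.2 in wild type. TOP2A was at 37.3 and 24.5 against 13.5, 9.97 and 7.51, and MAD2L1 at 31.3 and 21.1 against 8.84, 10.1 and 6.32. CENPH, a constitutive centromere protein, differed most (log2 difference 1.74, SE 0.22, adjusted p = 3.15e-05), with 19.4 and 11.7 FPKM against 3.63, 4.55 and 3.39. KIF15 was at 6.57 and 4.05 against 1.72, 1.41 and 1.37 (1.31, SE 0.16, adjusted p = 1.8e-05). None of these genes overlapped between the groups. By role, all 6 entry genes, all 4 checkpoint genes, all 4 anaphase genes and all 9 kinetochore genes were higher (5.54% of all genes were). So were all 6 cytokinesis genes, all 6 chromosome structure genes, 3 of 4 passenger complex genes and 6 of 8 spindle genes.

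The knockdown cells had nevertheless declined from their own day 0, in 42 of 47 genes (22.2% of all genes were lower and 20.1% higher), by a median of -1.03. The 5 others were TOP2A, KNSTRN, CENPH, CENPA and CKAP2. CDK1 went from 109 and 110 to 46.7 and 36.8 FPKM, and ANLN from 112 and 124 to 41.5 and 32. Without line 2 at day 4 the count was 22. The change from day 0 to 2D day 4 was itself smaller in DENND5A-KD than in wild type for 26 of 47 genes (1.15% of all genes differed in that direction and 0.679% in the other), with a median difference of 1.25 and 45 genes at an unadjusted limma p under 0.05. With the line or replicate number as a block, which pairs samples of the same knockdown line, the count was 40. KIF15 had the smallest adjusted p of that difference (0.00201, difference 1.42, SE 0.22), followed by CENPH and CENPA. Leaving out single libraries moved the count, to 3 without line 1 at day 4, to 6 without either knockdown day 0 library, to 9 without wild-type 2D day 4 replicate 3, and to 15 and 14 without wild-type day 0 replicates 2 and 3. Fitted on the 4 groups alone it was 7.

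**Figure D4:**
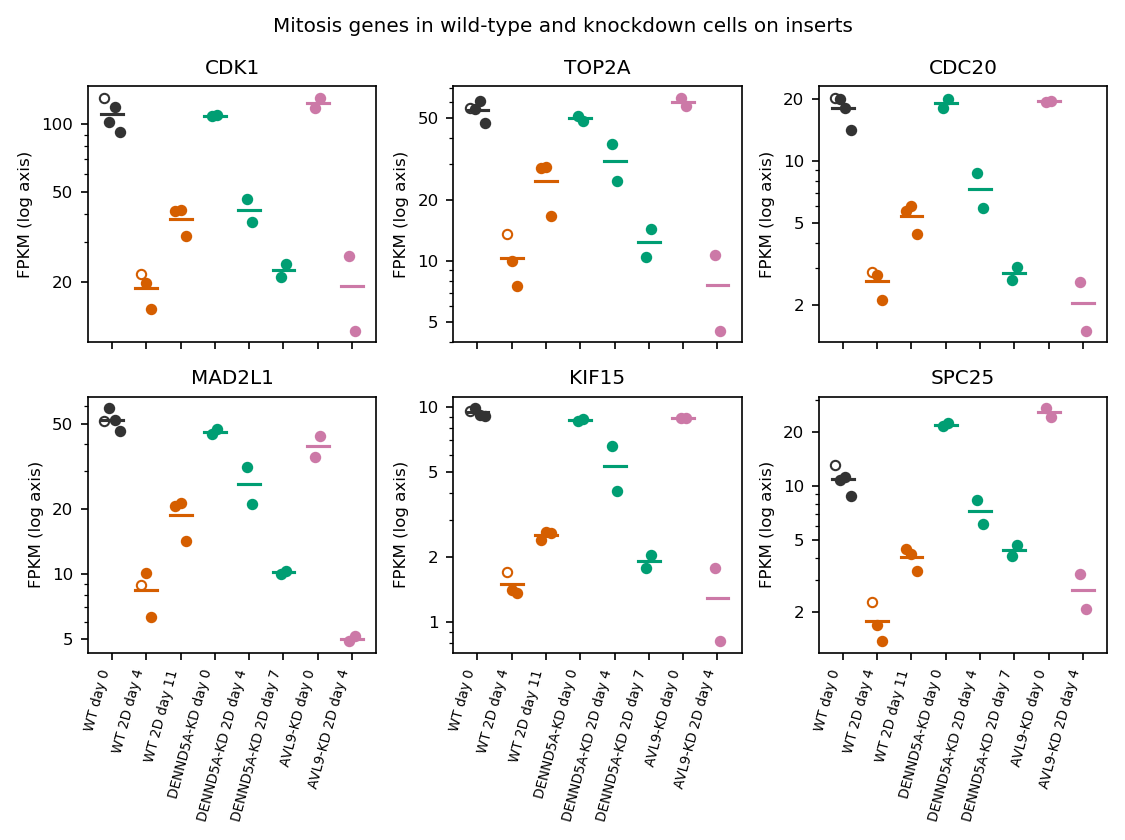
FPKM on a log axis of CDK1, TOP2A, CDC20, MAD2L1, KIF15 and SPC25 in wild-type and knockdown cells at day 0 and on inserts. Points are libraries, open points the wild-type libraries that stood apart, and bars group means; for all 6 genes both DENND5A-KD libraries at 2D day 4 lie above the 3 wild-type libraries.

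The 2 DENND5A-KD lines moved together with different size. At 2D day 4 line 1 was higher than line 2 for 47 of 47 genes, by a median log2 difference of 0.57. For counts of single lines, here and below, the share of all genes was not examined. Against the wild-type day 4 mean, the median was 1.55 in line 1, with 47 genes above every wild-type library, and 0.96 in line 2, with 45. Without line 1 the number of genes higher than wild type at 2D day 4 was 19 of 47, and the fit on these 2 groups alone gave 2, with 44 at an unadjusted limma p under 0.05. CDH16, an adhesion protein of mature kidney epithelium, was at 6.09 FPKM in line 1 and 28.2 in line 2, against 66.1, 39.6 and 49.6 in wild type, so the line with the higher mitosis genes had the lower CDH16. Its part in the difference was not tested. EPCAM, CDH1, CLDN4 and OCLN did not pass at this time.

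At 2D day 7 the genes of DENND5A-KD were lower than at day 4 in both lines, for 47 of 47 genes without overlap (18.0% of all genes). After adjustment 2 genes, CDC20 and KIF15, had fallen (0.0340% of all genes had, and 0.0170% had risen), 45 had an unadjusted limma p under 0.05, and the median was -0.98. CDC20 went from 8.70 and 5.89 to 2.64 and 3.05 FPKM (log2 change -1.09, SE 0.20, adjusted p = 0.0474), and KIF15 from 6.57 and 4.05 to 1.78 and 2.05 (-1.09, SE 0.17, adjusted p = 0.02). The adjusted count depended on the fit: it was 4 with the line as a block, 31 after quantile normalization, 25 after median-ratio scaling, 33 without line 2 at day 4, and 0 without any 1 of the other 3 libraries. Line 1 fell by a median of 1.44 and line 2 by 0.54 on the log2 scale, and by day 7 line 1 was below line 2 for 47 of 47 genes.

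Day 7 of the knockdown was compared with both wild-type time points on inserts, since wild type had no day 7. Against wild-type day 4, 1 gene (SPC25) was higher and none lower (3.04% and 1.91% of all genes), with a median of 0.26 and 2 genes higher under the line block. Without knockdown line 2 the count was 0, with an unadjusted limma p under 0.05 for 3 genes with all libraries (PRC1, CENPH and SPC25). Line 2 was above every wild-type day 4 library for 36 genes and line 1 for 8. The median log2 differences from the wild-type day 4 mean were 0.39 in line 2 and 0.11 in line 1. The share of all genes was not examined for single lines. Against wild-type day 11, 8 genes were lower and none higher (3.06% and 2.73% of all genes): ANLN, CDC20, CDCA3, DLGAP5, ESPL1, HMMR, NCAPH and SMC2. The groups did not overlap for 46 of 47 genes (32.9% of all genes), the median was -0.68, and 41 genes had an unadjusted limma p under 0.05. ANLN was at 18.6 and 24.0 FPKM against 46.6, 48.1 and 30.7 (log2 difference -0.92, SE 0.21, adjusted p = 0.0124). The count of 8 was 24 without wild-type day 11 replicate 3, 2 without knockdown line 2, and 0 without any 1 of the other 3 libraries.

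In AVL9-KD cells few mitosis genes differed from wild type at either time. At day 0, CKAP2 was lower and SPC25 higher (4.59% and 13.4% of all genes were lower and higher), and without line 1 the total of 2 was 1. At 2D day 4, 2 genes were lower than in wild type, CKAP2 and DLGAP5, a spindle protein, and none higher (2.34% and 18.7% of all genes), with a median of -0.23. Over all genes the median difference was 0.19, and with quantile normalization or median-ratio scaling 8 mitosis genes were lower. DLGAP5 was at 2.86 and 1.29 FPKM against 5.12, 4.27 and 2.76 (log2 difference -0.74, SE 0.24, adjusted p = 0.0352). Without wild-type 2D day 4 replicate 1 or 2 the count was 1, and without AVL9-KD line 1 it was 6. All 47 genes fell from day 0 to 2D day 4 (22.8% of all genes), by a median of -2.71, with CDK1 going from 118 and 131 to 26.1 and 12.1 FPKM. For the size of that fall no gene passed against wild type (0.238% and 0.985% of all genes), with 6 at an unadjusted limma p under 0.05 and a median difference of -0.28. Line 4, at a relative depth of 0.543, was below line 1 for 45 genes at day 4, and without line 1 3 genes differed.

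Set against each other at 2D day 4, the knockdowns differed in 46 of 47 genes, all higher in DENND5A-KD (3.28% of all genes), by a median of 1.55 and without overlap for 47 (9.91%). KIF18A was the exception (log2 difference 0.39, adjusted p = 0.14). Fitted on these 2 groups alone the count was 0, with 41 genes at an unadjusted limma p under 0.05. BUB1, a checkpoint kinase of the kinetochore, differed most (2.23, SE 0.31), with 24.4 and 14.6 FPKM in DENND5A-KD and 5.54 and 1.75 in AVL9-KD. The change from day 0 differed for 34 of 47 genes (0.943% of all genes, and 0.484% in the other direction), all with the smaller fall in DENND5A-KD. PRC1 had the smallest adjusted p (0.00377, difference 1.85, SE 0.29). That count was 0 without DENND5A-KD line 1 at day 4, 9 without AVL9-KD line 4 at day 4, 14 and 11 without DENND5A-KD line 1 or 2 at day 0, and 18 without AVL9-KD line 4 at day 0. Fitted on the 4 groups alone it was 0, with 42 genes at an unadjusted limma p under 0.05.

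SPC25 (ENSCAFG00000011859) and CKAP2 were the only mitosis genes that passed against wild type in knockdown cells at day 0. SPC25 was at 13.2, 10.8, 11.2 and 8.76 FPKM in wild-type day 0 cells, at 21.5 and 22.3 in DENND5A-KD and at 27 and 24.3 in AVL9-KD. All 4 knockdown libraries lay above all wild-type libraries, by a log2 difference of 0.95 (SE 0.16, adjusted p = 0.000885) and 1.16 (SE 0.16, adjusted p = 6.22e-05), against the same wild-type libraries. Its partners did not pass: SPC24 was at 15 and 13.4 in DENND5A-KD and 15.5 and 15.2 in AVL9-KD, and NDC80 at 14.0 and 13.9 and at 13.5 and 13.5. At 2D day 7 of DENND5A-KD, SPC25 was at 4.10 and 4.69 FPKM against 2.28, 1.70 and 1.37 in wild-type day 4 (log2 difference 0.97, SE 0.17, adjusted p = 0.00151). CKAP2 was lower in AVL9-KD at day 0 (log2 difference -1.0, SE 0.26, adjusted p = 0.0118), with 8.55 FPKM in line 1 and 20.9 in line 4 against 25.5 to 29.4. CKAP2 was also lower at 2D day 4 (-0.89, SE 0.27, adjusted p = 0.0249), with 4.65 and 12.2 against 16.8, 15.5 and 13.1. Both lines were below all wild-type libraries at both times, and line 1 was the lower in each.

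**Figure D5:**
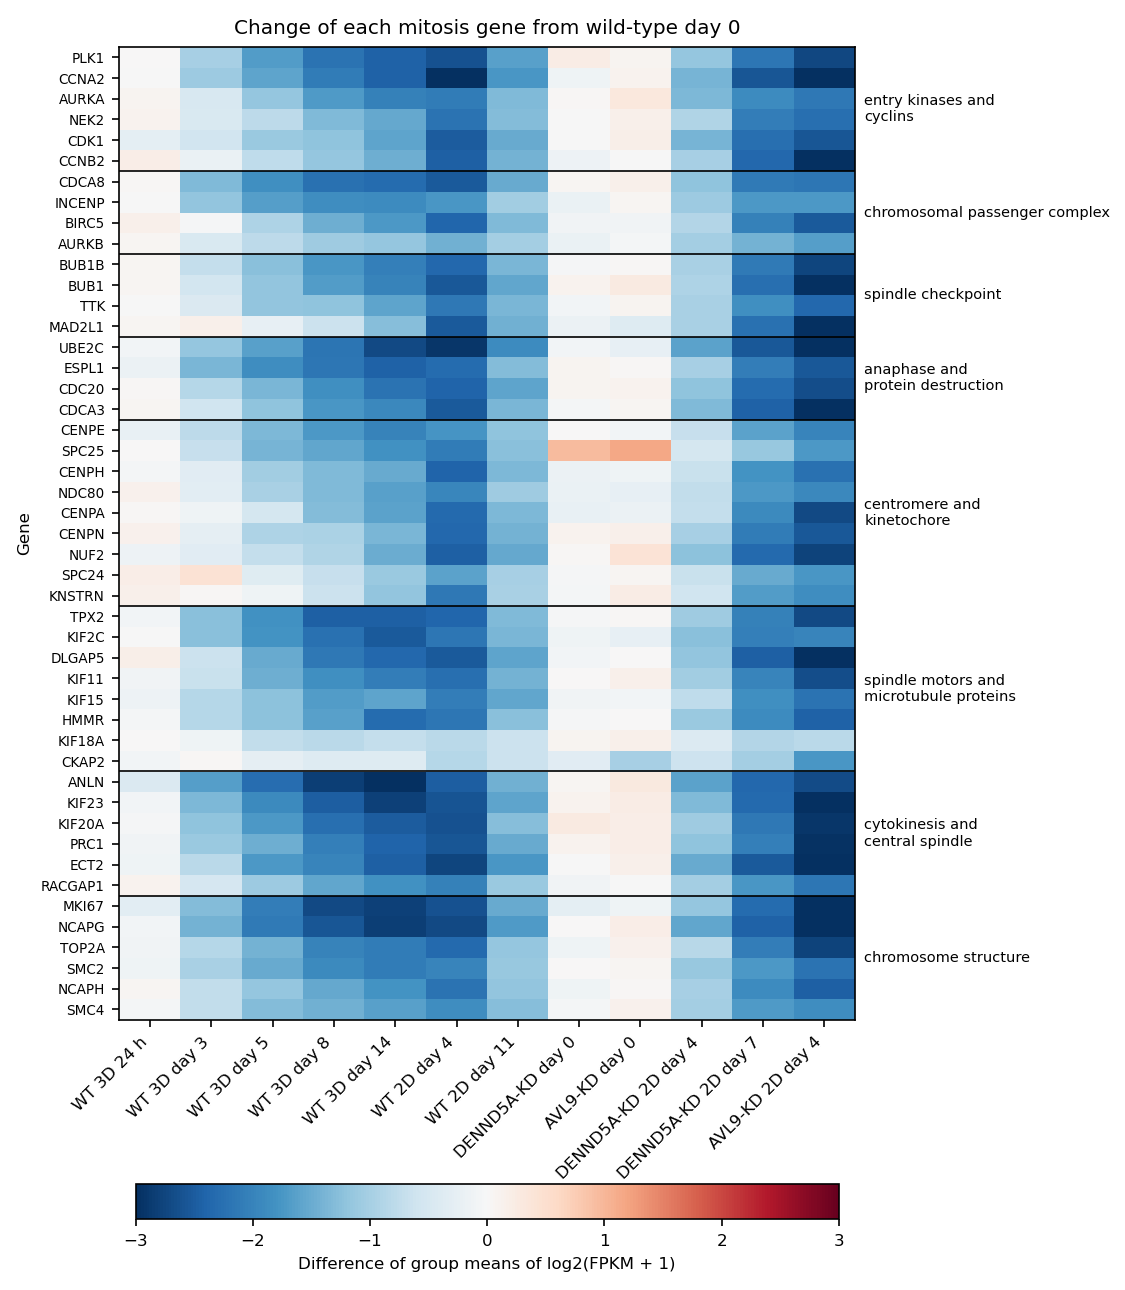
Difference of the group mean of log2(FPKM + 1) from wild-type day 0 for each measured mitosis gene (rows, by role) and each other group (columns), from blue (lower) to red (higher). In the columns of 24 h and of the knockdowns at day 0, the genes that passed were SPC25 (0.95 in DENND5A-KD and 1.16 in AVL9-KD) and CKAP2 in AVL9-KD (-1.0), and others that did not pass reach -0.44 (ANLN at 24 h).

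Across the 13 groups most of the genes followed 1 profile. The correlation of a gene with the mean of the 46 others over group means, given as a description of points that share libraries, was lowest for CKAP2 (r = 0.58), MAD2L1 (0.85), SPC24 (0.91), KNSTRN (0.91), SPC25 (0.91) and ANLN (0.92). Outside the list, among genes with a group mean of at least 5 FPKM in 1 or more groups, the 10 whose group means were most like the average of the 47 (r from 0.989 to 0.998 over 13 groups) included KIF22, DEPDC1B, MTFR2, GTSE1, KIFC1, TACC3, FANCD2, FBXO5 and GINS4. KIF22, a chromosome-arm motor, was at 25, 21.4, 22.3 and 17.6 FPKM at day 0 and at 4.36, 4.33 and 2.24 at 2D day 4.

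Further mitosis genes outside the 50 were counted in the same comparisons, and the difference between their counts and those of the 47 was not tested. Of 71 tested, 63 were lower and 1 higher at 3D day 8, 66 and 1 at 2D day 4, and 0 and 25 from 2D day 4 to day 11. Of all genes 38.0% were lower and 24.7% higher in the first of these comparisons, 29.6% and 30.3% in the second and 0.178% and 1.90% in the third. In DENND5A-KD at 2D day 4, 43 of the 71 were higher than in wild type and none lower, against 5.54% and 5.79% of all genes. The higher gene at 3D day 8 was STAG2, a cohesin subunit (log2 change 0.39, SE 0.13), at 14.2, 15.6, 14.7 and 14.0 FPKM at day 0 and 21.2 and 17.9 at day 8. At day 0, 5 of the 71 were lower in DENND5A-KD and 1 higher (2.25% and 3.27% of all genes), the lower ones including CDCA2 (-1.15), HMGB2 (-0.99) and SKA3 (-0.98). CDCA2, which recruits phosphatase to chromosomes, was at 6.30 and 5.55 FPKM there against 15.4, 14.7, 15.6 and 12.1 in wild type.

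Of the known regulators of these genes, FOXM1, MYBL2 and E2F1 fell in both forms of culture. FOXM1, the activator of late cell cycle genes, was at 10.9, 11.1, 10.7 and 10.3 FPKM at day 0, at 3.28 and 2.76 at 3D day 8, at 2.54, 2.09 and 1.74 at 2D day 4 and at 6.95 and 5.07 in DENND5A-KD at 2D day 4. It fell by 1.55 and 1.92 on the log2 scale in 3D and 2D and was 1.16 (SE 0.19, adjusted p = 0.00035) higher in the knockdown than in wild type. MYBL2, which encodes B-MYB, was at 80.6, 75.7, 73.8 and 65.5 FPKM at day 0 and at 13 and 12.6 by 3D day 5, and it fell between 3D day 3 and day 5 (log2 change -1.07, adjusted p = 0.0231), a step at which no mitosis gene passed. E2F1 fell by 1.26 in 3D day 8 and 1.80 in 2D day 4. RBL2, the pocket protein of the DREAM complex, rose at 2D day 4 (0.55, SE 0.11) and missed the threshold in 3D at day 8 (0.29, adjusted p = 0.0571). Of the 21 tested transcription factors and DREAM genes, 12 were lower and 1 higher at 3D day 8, and 14 and 3 at 2D day 4. Of all genes 38.0% were lower and 24.7% higher at 3D day 8, and 29.6% and 30.3% at 2D day 4.

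Inhibitors of cyclin-dependent kinases went both ways. CDKN1B, which encodes p27, rose at 3D day 8 (log2 change 1.19, SE 0.14) and 2D day 4 (1.08, SE 0.12), from 5.41, 3.91, 4.66 and 4.72 FPKM to 12.3 and 11.5 and to 11.8, 10.3 and 10.8. CDKN1A, which encodes p21, fell by 1.68 and 1.76, and was higher at day 0 in DENND5A-KD (21.4 and 34.1 FPKM) and AVL9-KD (39.9 and 33.5) than in wild type (13.1, 11.0, 16.9 and 8.32). CDKN2B, which encodes p15, was higher in DENND5A-KD at 2D day 4, at 13.3 and 6.95 FPKM against 2.75 and 1.27 in wild type, where it was listed at 0 in the library that stood apart. CCND1, the G1 cyclin, fell by 1.98 at 3D day 8 and 1.86 at 2D day 4. Of 22 DNA replication genes, 15 had fallen at 3D day 3, 20 at day 5 and 22 at day 8 (23.1%, 31.2% and 38.0% of all genes). All 22 had fallen at 2D day 4 and day 11 (29.6% and 23.7% of all genes). In DENND5A-KD 16 were higher than in wild type at 2D day 4 (5.54% of all genes).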

How the data were processed

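RNA sequencing of 29 MDCKII libraries was used. The authors deposited 1 file of FPKM values per library, and the submitters' processing notes name HISAT2 2.1.0, Cufflinks 2.2.1 and 2 builds, CanFam3.1 and canFam3, without saying what each did. Libraries were made with a stranded mRNA kit, per the labels. Read counts were not used here, so depth is known only roughly, from the steps between FPKM values under 0.15. The mitosis genes, the other gene lists and the comparisons were chosen with earlier results of these data known. Named in full were 7 standard members, the extremes of each role, up to 5 members with the smallest p per contrast and members that went against the majority.

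Genes were kept where 2 or more libraries reached 1 FPKM, and limma 3.58.1 in R 4.3.3 (with a trend) estimated 1 mean of log2(FPKM + 1) for each of 13 groups. Each of 25 contrasts had a 2-sided test, and p-values were adjusted by Benjamini-Hochberg over 11774 genes at 0.05, and day 14 was described without a test. The alternatives tried were a pseudocount of 0.1, median-ratio scaling, quantile normalization, the replicate or line number as a block, no filter, omission of each library in turn and fits of only the groups compared. A batch term for the 5 libraries that stood apart, and their omission, were chosen after seeing the data. For the block, knockdown lines were paired by their number in the labels. Deviations from group means correlated between same numbers at 0.0101 to 0.0966 in DENND5A-KD and at 0.358 in AVL9-KD. With 2 libraries per group, different numbers give the same values with the opposite sign. The DENND5A-KD values were small and show little pairing. The fit was tested on simulated data. Promoter and protein sequences were not analysed here. Files were read with Python 3.11.15, pandas 2.3.3 and numpy 2.4.6, and figures were drawn with matplotlib 3.10.9.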

Additional observations from a re-analysis of the deposited data

Results flagged for a closer look

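CENPH was at 26.8 FPKM in day 0 replicate 2, above the 23.5 to 24.0 of the other 3 day 0 libraries. NDC80 was at 14.9 FPKM in day 0 replicate 4, below the 16.6 to 16.8 of the others. Both kinetochore genes were singled out because the gap was large for the range of the 4 libraries, and day 0 was the only group of 4 in which the 47 genes were checked. Chance alone singles out about 1 in 20 groups, so with 47 genes checked some would be singled out by chance. Both genes were above every 3D day 8 and every 2D library in all 4 day 0 libraries.

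The change from day 0 to 2D day 4 differed between groups by a test of the difference itself. It was smaller in DENND5A-KD than in wild type for 26 genes and smaller than in AVL9-KD for 34 genes, and both counts depend on the libraries named with them above.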

How the results depend on the processing

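All 47 genes were lower at 2D day 4 than at day 0 under every alternative, and no direction of a named gene was reversed. Fitted on the groups of a contrast alone, the counts were 0 for 2D day 11 against day 4, 11 for 3D day 5 against 2D day 4, 2 for DENND5A-KD against wild type at 2D day 4, 0 for DENND5A-KD day 7 against day 4, 0 and 5 for that day against wild-type day 4 and day 11, 1 for AVL9-KD against wild type at day 0, 0 for the same at 2D day 4, 0 for the knockdowns against each other, and 7 and 0 for the change from day 0 in DENND5A-KD against wild type and against AVL9-KD. Such fits leave fewer libraries to estimate the spread. DENND5A-KD day 7 against day 4 gave 31 with quantile normalization, 25 with median-ratio scaling, 0 with the pseudocount of 0.1, 1 without the 5 libraries and 5 with the batch term. Day 7 against wild-type day 4 gave 2 with quantile normalization, and against day 11 it gave 13 with quantile normalization and 13 with the batch term. AVL9-KD against wild type at 2D day 4 gave 8 with quantile normalization or median-ratio scaling, 1 with no filter and 1 without the 5 libraries. The change in DENND5A-KD against wild type gave 17 without the 5 libraries. The cause of these shifts was not tested.

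Leaving out 1 library gave 15 to 21 genes for 3D day 3 against 24 h, 0 to 2 for day 5 against day 3, 0 to 42 for 2D day 11 against day 4, 19 to 39 for 3D day 5 against 2D day 4, 7 to 20 for 3D day 8 against 2D day 11, 19 to 45 for DENND5A-KD against wild type at 2D day 4, 22 to 45 for its day 4 against day 0, 0 to 33 for day 7 against day 4, 0 to 1 and 0 to 24 for day 7 against wild-type day 4 and day 11, 1 to 2 for AVL9-KD against wild type at day 0, 1 to 6 for the same at 2D day 4, and 3 to 37, 0 to 3 and 0 to 40 for the 3 differences of change. With 1 library left in a group, it was taken to vary like the other groups.

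With the replicate or line number as a block, the count was 4 for DENND5A-KD day 7 against day 4, 2 for that day against wild-type day 4 and 40 for the change in DENND5A-KD against wild type, and no other count moved by over 1.5 times. Wild-type libraries share only a number: deviations correlated with a median of 0.0812 between same numbers (-0.16 to 0.558, 41 pairs) and -0.025 between different ones. The highest same-number values, 0.504 to 0.558, were all between libraries that stood apart, so they cannot be told from a difference of that set. Single named genes no longer passed in 193 values from whole-fit alternatives (2207 stayed on their side) and in 343 with 1 library left out (1402 stayed). Depth was known only in relative terms, so the precision of low genes such as KIF18A was not assessed. The promoter motif search was not run.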
